A study of Mus musculus with 12 samples.

Results

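The account covers the mid-length back-splice junctions of genes that host many of them in mouse hippocampus. These are the listed intervals of 1000 bp or more and under 50 kb whose named gene occurs in 8 or more rows of the table of listed junctions. The rule uses interval length and row counts only, not signal or genotype, and it takes 835 of 7025 listed junctions (11.9%), in 106 of 2947 named hosts. The same 106 hosts have 1173 listed junctions in all, and the 292 intervals of 50 kb or more and the 46 under 1 kb are outside the rule. All 835 members had the mean signal the genotype test asks for, so none dropped out. The junctions were measured in 3 libraries of 7-month-old 5xFAD hippocampus and 3 of 7-month-old wild-type (WT) hippocampus under the title prefix AT. A second set under the prefix CG, with 3 5xFAD and 3 WT libraries of the same tissue and age, gave FPKM per gene, a level per transcript length and library size. The 5xFAD mouse carries human transgenes with mutations of familial Alzheimer's disease under regulatory sequence of Thy1, so their expression is largely neuronal. The labels do not spell out the prefixes. The design text names RNA-seq after rRNA depletion, and A-tailing with RNase R, an enzyme that digests linear RNA. Nothing in the labels says whether the libraries come from separate animals, or whether AT and CG share animals, so the p-values reflect only sample-to-sample spread, which could be technical.

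A back-splice junction forms when the spliceosome joins a donor site at the end of an exon to an acceptor site upstream of it, which closes the exons between them into a circular RNA. Such circles lack free ends, resist exonucleases, and are abundant in brain, where many come from genes of synapses and signalling. One gene can give several circles, which may use the same acceptor with different donors or the same donor with different acceptors. Because each interval of the table runs from one joined site to the other, its ends show which sites the circles of a gene have in common.

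The 5xFAD libraries held 191408, 683540 and 659414 junction reads, recovered from the steps of the deposited normalized signal, and the WT libraries held 438790, 695539 and 695528. 5xFAD replicate 1 and WT replicate 1 were the shallowest of their genotypes, and 1 read was worth a signal of 0.866 in 5xFAD replicate 1, against 0.226 to 0.374 in the other libraries. The members took 16.4% to 17.6% of the junction reads of a library. Hippocampal excitatory neuron markers were present in every CG library, with 9 of 9 above 1 FPKM throughout. The CG library labelled 5xFAD replicate 3 goes against its label, with a Thy1 level of 305 FPKM, against 1136 and 1172 in 5xFAD replicates 1 and 2 and 296 to 339.7 in WT. CG results are therefore given with and without it. The AT set gives no gene levels, so the genotype labels of its libraries could not be checked by Thy1 level and were taken as given. Choroid plexus markers, tissue that borders the hippocampus, summed to 52.5, 68.7 and 482 FPKM in the CG 5xFAD libraries and 2835, 37.8 and 60.1 in the CG WT libraries, so WT replicate 1 stands apart in these.

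The members ran from 1041 to 49995 bp, with a median of 18511 bp. The shortest was a Zfp827 interval, and the nearest interval below the limit was one of 958 bp in Prkcb. The longest was a Gphn interval, and the nearest above the limit was one of 50211 bp in Dennd1b. On the other side of the rule, 29 hosts had exactly 8 listed junctions and 32 had 7. The median mean signal of the members was 10.6, against 8.49 for named junctions of hosts with 2 to 7 and 6.99 for those of hosts with 1. Among the members, 62 had a mean signal over 100 and 397 one under 10. The lowest signal that a listed junction showed throughout the 3 libraries of its higher genotype was 2.03, so weaker circles of these hosts are not covered.

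The hosts were sorted into 12 lists by what their proteins do, and 61 of 106 fell into one. Ion channels and transporters had 9 hosts, cell adhesion and axon guidance receptors 8, and postsynaptic scaffold and signalling proteins 7. Presynaptic proteins, small GTPase regulators, kinases with lipid signalling enzymes, and chromatin with transcription factors had 6 each. Membrane trafficking had 5, RNA binding proteins 4, and cytoskeleton and motors 3. The glutamate and GABA receptor list had 1, Grm5, a metabotropic glutamate receptor. None of the hosts is on the ubiquitin and protein turnover list, although 62 of its 83 genes hosted at least 1 listed junction. The list is not complete: Arih1, for an E3 ubiquitin ligase, named after its values were seen, is a host with 8 members and is on no list. The other 45 hosts are in no list and hold 42.6% of the members' signal. By signal, small GTPase regulators held the most of any list (11.8%), followed by postsynaptic proteins (9.28%) and kinases with lipid signalling enzymes (8.56%). These shares are counts over a fixed list and carry no test of enrichment. Other lists are not complete either. Rps6kc1, of the ribosomal S6 kinase family, has a summed signal of 722 and is on no list. The order of the lists by signal therefore depends on how they were drawn.

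The 10 hosts with the highest sums held 34.2% of the members' signal between them. Summed over its mid-length junctions, Dgki, which encodes a diacylglycerol kinase that ends diacylglycerol signalling, had a signal of 1379.9, 1363 and 1281 in the 5xFAD libraries and 1253, 1354 and 1431 in the WT libraries. Dtnb, for a dystrobrevin of the dystrophin-associated complex, had 964, 1236 and 1428 in the 5xFAD libraries and 1098, 1221 and 1366 in the WT libraries. Tasp1, for a protease that cuts mixed-lineage leukaemia family proteins, had 1486, 684 and 1008 in the 5xFAD libraries and 1336, 850.4 and 994 in the WT libraries. The libraries of both genotypes overlapped for all of these hosts, and Tasp1 was highest in replicate 1 of each genotype. Ssbp2, for a cofactor of LIM-domain transcription complexes, had 831, 865 and 797 in the 5xFAD libraries and 1159, 953 and 842 in the WT libraries. Arhgap26, for a GTPase-activating protein, averaged 876 ± 87.8 in 5xFAD and 967 ± 91.5 in WT (SD, n = 3 each, as for all sums and shares below). Anks1b, for a postsynaptic density protein, averaged 914 ± 122 in 5xFAD and 896 ± 84.8 in WT, and Rims1, for a scaffold of the presynaptic active zone, averaged 732 ± 83 in 5xFAD and 667 ± 68.5 in WT. Dennd1b, for an activator of Rab proteins in endocytic traffic, averaged 827 ± 163 in 5xFAD and 893 ± 132 in WT. Rps6kc1, for a member of the ribosomal S6 kinase family with a lipid-binding domain, averaged 714 ± 111 in 5xFAD and 729.8 ± 77 in WT. Adgrb3, for an adhesion G protein-coupled receptor of synapses, had 572, 569 and 639 in the 5xFAD libraries and 788, 669 and 708 in the WT libraries. In Adgrb3 the 5xFAD libraries were all below the WT libraries, and in the other 9 hosts the genotypes overlapped. The median host had a summed signal of 161, and the range ran from 6.74 in Atxn1 to 1344 in Dgki.

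**Figure D1:**
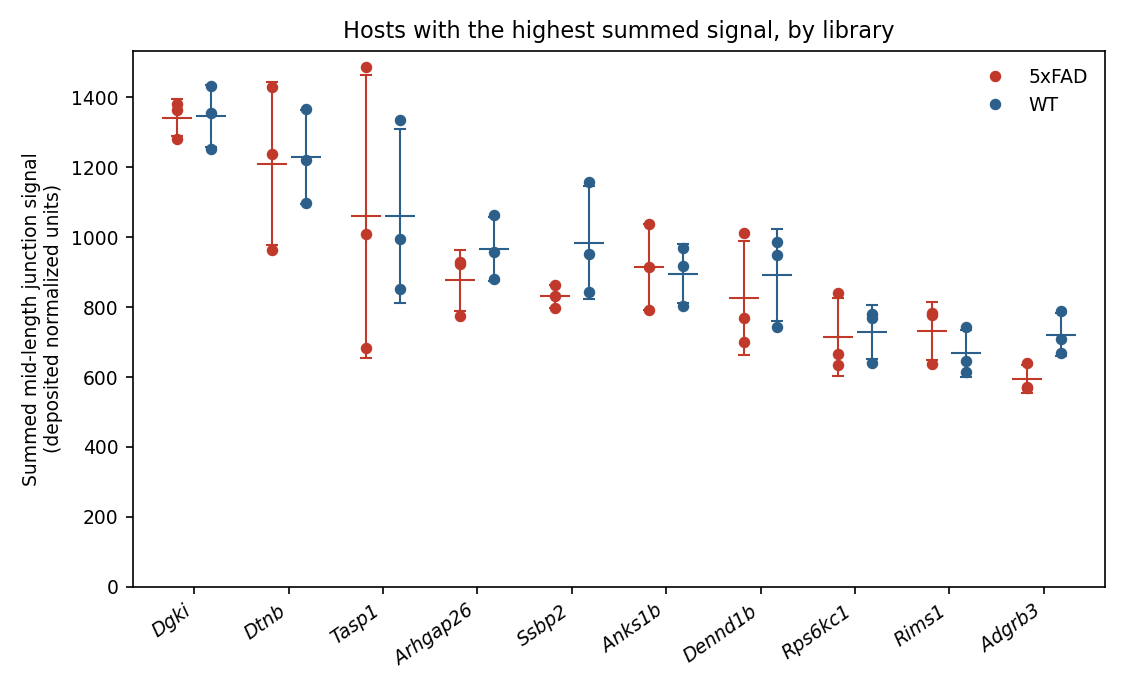
Summed signal of the mid-length junctions (vertical axis, deposited normalized units) of the 10 hosts with the highest sums, with 5xFAD left of WT. Points are libraries, and the horizontal marks and bars give the mean and SD of 3 libraries; the genotypes overlap in every host drawn except Adgrb3.

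Hosts of synaptic proteins differed widely in level. On the presynaptic list, Rims2, a second active zone scaffold, averaged 445 ± 162 in 5xFAD and 411 ± 59.1 in WT, and Cadps, which primes dense-core vesicles, averaged 155 ± 37.5 in 5xFAD and 165 ± 16.3 in WT. Erc2, another active zone protein, averaged 98.8 ± 39.2 in 5xFAD and 73.1 ± 23.4 in WT. Of the postsynaptic scaffolds, Dlgap1 averaged 596 ± 91.9 in 5xFAD and 599 ± 151 in WT and Magi2 239 ± 46.1 in 5xFAD and 247 ± 22.1 in WT. Ptk2, the focal adhesion kinase, averaged 406 ± 62.7 in 5xFAD and 453 ± 12.4 in WT. Among channels, the calcium release channel gene Ryr2 averaged 541 ± 66.4 in 5xFAD and 586 ± 34.2 in WT and Unc79, for a subunit of the sodium leak channel complex, 401 ± 221 in 5xFAD and 360.5 ± 117 in WT. Cacna2d3 and Cacna1c, for subunits of voltage-gated calcium channels, averaged 291 ± 76.2 in 5xFAD and 298 ± 16.5 in WT for Cacna2d3 and 216 ± 25.8 in 5xFAD and 236 ± 52.2 in WT for Cacna1c. In each of these hosts the mean sums of the genotypes differed by less than the larger SD.

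In signalling and regulatory hosts the levels were of the same order. Dock4, for an activator of Rac, averaged 595 ± 218 in 5xFAD and 660.1 ± 101 in WT, and Pi4ka, for the kinase that starts phosphoinositide synthesis at the plasma membrane, 339 ± 108 in 5xFAD and 388 ± 41.1 in WT. Ralgps1, for a Ral activator, averaged 282 ± 97.6 in 5xFAD and 300.1 ± 56.7 in WT, and Stk39, for a kinase that controls chloride cotransporters, 307 ± 51.3 in 5xFAD and 262 ± 22.7 in WT. Prkcb, a protein kinase C gene, averaged 140.1 ± 12.3 in 5xFAD and 181 ± 26.9 in WT, with every 5xFAD library below every WT library. Rere, a transcriptional corepressor gene, averaged 630.4 ± 89.1 in 5xFAD and 649 ± 102 in WT, and Foxp1, a forkhead transcription factor gene, 156 ± 77.6 in 5xFAD and 149 ± 27.5 in WT. Nbea, for a BEACH-domain protein of membrane traffic at synapses, averaged 476 ± 80 in 5xFAD and 471 ± 32.4 in WT, and Rabep1, for a Rab effector of early endosomes, 189.8 ± 83.4 in 5xFAD and 166 ± 10.3 in WT. Csmd1, for a large membrane protein with complement-control domains, averaged 280.4 ± 48.4 in 5xFAD and 242 ± 28.3 in WT, and Adgrl3, a latrophilin gene, 148 ± 7.64 in 5xFAD and 156 ± 25.3 in WT. Of the RNA-binding proteins, Cpeb3, which controls translation at synapses, was highest at 162 ± 24.6 in 5xFAD and 157 ± 13.3 in WT, and Rbfox1, a neuronal splicing regulator, had 58 ± 25.1 in 5xFAD and 57 ± 14.8 in WT. Ttll5, for a tubulin-glutamylating enzyme, averaged 145 ± 22.8 in 5xFAD and 157 ± 4.3 in WT, and Grm5 82.7 ± 43.3 in 5xFAD and 93.3 ± 29.8 in WT.

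The number of members per host ran from 1 to 19, with a median of 8. Dgki had the most, 19 of its 36 listed junctions, followed by Nbea with 15 of 22. Adgrb3, Cacna2d3, Dock4 and Ptk2 had 14 each, and Tasp1 and 2010111I01Rik, the gene of an aminopeptidase, 13 each. Dennd1b, Magi2, Nbas, Pi4ka and Ryr2 had 12 each. Nbas, for a protein of transport between Golgi and endoplasmic reticulum, had the lowest sum of these 13 hosts, at 119 ± 23 in 5xFAD and 111 ± 22.3 in WT. Across the 106 hosts, Spearman's rank correlation between the summed signal and the host's mean CG level in FPKM was 0.020, a description over hosts that share the same libraries. Some hosts have nearly all of their circles outside the range studied. The mid-length share of a host's listed signal was 0.339% in Atxn1, a gene of polyglutamine ataxia, whose 1 member is listed beside longer intervals. It was 2.42% in Large, for a glycosyltransferase of dystroglycan, and 9.05% in the noncoding gene Pvt1, whose strongest junction spans 318 bp. In 92 of 106 hosts, the strongest listed junction of any length was a member.

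The top junction of a host, taken as the member with the highest mean over the 6 libraries, held a median of 45.2% of the host's mid-length signal, with quartiles of 33% and 57.2%. It held over 50% in 40 of 106 hosts. Over listed intervals of every length, the strongest junction held a median of 38.7% and over 50% in 24 of 106 hosts. The median of the top junction's share was 43.4% to 45.5% in the 5xFAD libraries and 44.7% to 45.4% in the WT libraries. The same junction was the strongest in all 6 libraries in 54 hosts, in 5 libraries in 22, and in fewer in 30. Where the top junction held over 50%, it led in all 6 libraries in 34 of 40 hosts. At the other end, 361 of 835 members each held under 5% of their host's signal. A median of 4 junctions was enough for 80% of a host's signal.

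Ssbp2 was the most concentrated of the hosts with 3 or more members. Its top junction, chr13:91664189-91704299 in mm9, spans 40110 bp and held 98.6 ± 0.254% in 5xFAD and 98.7 ± 0.145% in WT. Its signal was 817, 854 and 787 in 5xFAD and 1142, 940.5 and 832 in WT, while the next Ssbp2 junction averaged 5.57. In Cacna1a, for the pore of P/Q-type calcium channels, chr8:87107457-87112758 held 88.1 ± 2.02% in 5xFAD and 90.1 ± 0.612% in WT. In Erc2, chr14:29116061-29130500 held 86 ± 6.38% in 5xFAD and 82.2 ± 6.15% in WT, of a mid-length signal that was 29.3% of all Erc2 junction signal. In Dtnb, chr12:3617605-3648389 held 82.3 ± 4.7% in 5xFAD and 83 ± 0.612% in WT, and it was the strongest member of all, with a signal of 741, 1050.1 and 1216 in 5xFAD and 904, 1015 and 1142 in WT. In Kcnma1, for a calcium-activated potassium channel, chr14:24183022-24205575 held 79.5 ± 5.88% in 5xFAD and 81.2 ± 3.52% in WT. The top junction was over 5 times as strong as the second in 18 of 105 hosts with 2 or more members (17.1%). For hosts with 2 to 7 listed junctions the same was true of 17.7% of 1106, so a strong lead was about as frequent in both; no test was made of the difference.

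Other abundant hosts spread their signal over several circles. The top Dgki junction, chr6:36979762-37008028, had a signal of 664, 740.0 and 679 in 5xFAD and 604, 721 and 796 in WT and held 51.8 ± 3.23% in 5xFAD and 52.4 ± 3.8% in WT. The second Dgki junction, chr6:36844775-36887400, averaged 143. Tasp1 had 2 strong circles, with a mean of 358 at chr2:139867829-139883235 and 279 at chr2:139834434-139883235. The first led in 4 of 6 libraries. In Adgrb3, chr1:25278604-25285392 averaged 274 and chr1:25183485-25188246, an interval that does not overlap it, averaged 234. In Dock4 the same held for chr12:41358108-41367032 with 197 and chr12:41394992-41403377 with 185. The lowest top share was in Ap3b1, for a subunit of an adaptor complex of vesicle traffic, where chr13:95271872-95302021 held 21.4 ± 4.41% in 5xFAD and 12.3 ± 5.36% in WT and led in 2 of 6 libraries. Rere, Dgkb (a second diacylglycerol kinase), Mllt10 (a chromatin reader) and Atxn10 followed, with top shares of 21%, 21.1%, 22.3% and 22.3% over the 6 libraries. Between these neighbours the differences were smaller than the SD over libraries of 4.28 to 8.52 percentage points.

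**Figure D2:**
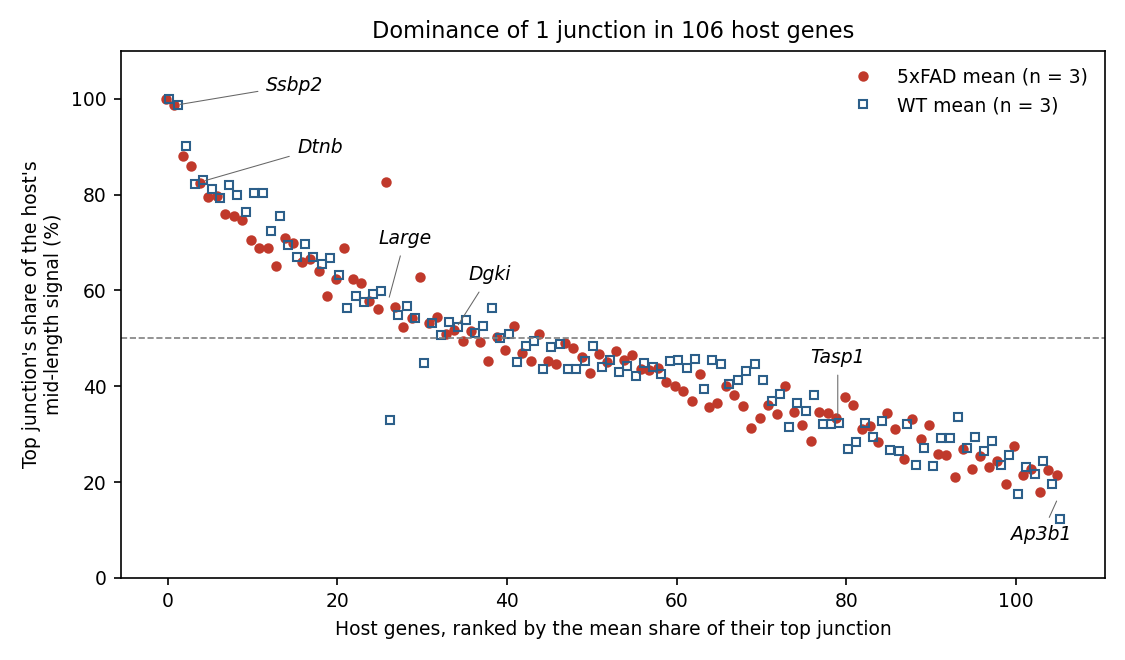
Share of each host's mid-length signal held by its top junction (vertical axis, %), for 106 hosts ranked by that share; filled circles are the 5xFAD mean and open squares the WT mean of 3 libraries, and the dashed line marks 50%. Gaps between the genotype means occur in both directions. Kmt2c had 68.9 ± 18.8% (SD) in 5xFAD and 56.3 ± 5.71% in WT. Rbfox1 had 31.3 ± 21.3% in 5xFAD and 44.6 ± 13% in WT. In both hosts the libraries of the genotypes overlap. Large, at a summed signal of 6.78, has the widest gap. Its remaining signal meets the lowest listed level only through WT, so this gap is no support for a difference.

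Most members shared an end with another junction of the same host. A start or an end, to the base, was shared with another listed junction of the host by 728 of 835 members (87.2%), and both ends were shared, each with some other junction, by 304 (36.4%). The 107 members with no shared end had a median mean signal of 7.77, against 11.4 for those with one. The share tended to be larger where more listed junctions could serve as partner. Among mid-length junctions it was 51.5% in hosts with exactly 2 listed junctions, 72% with 4, 83.7% with 7, and 87.6% with 8. Of the top junctions, 95 of 106 shared an end and 54 shared both. A strand was available from RefSeq gene tables of mouse (GRCm38.p6, used for strand only) for 78 of 106 hosts. In their 625 members, the acceptor was shared by 398 (63.7%) and the donor by 381 (61%).

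Counted over the members alone, 1160 distinct ends were used, of which 780 served 1 member, 276 served 2, and 104 served 3 or more. Ends with 3 or more members occurred in 61 hosts. The most members on 1 end were in Atxn10, named for a spinocerebellar ataxia, where 6 of 10 members closed at the donor at position 85223936 of chromosome 15 and held 77.6% of the host's signal. In Nf2, the gene of the tumour suppressor merlin, 5 of 10 members began at the acceptor at position 4720496 of chromosome 11, with 77.7% of the signal. In Magi2, 5 of 12 members closed at the donor at position 20075172 of chromosome 5, with 51.9%. Another 14 hosts had 4 members on 1 end. In Dgki, 4 members closed at the donor at position 36979762 of chromosome 6, among them the top junction, and held 56.3%. In Tasp1, 4 members began at the acceptor at position 139883235 of chromosome 2, both of the strong circles among them, and held 64.6%. Sharing an end did not make the circles alike in level. The Tasp1 circles on that acceptor averaged 9.84, 38.1, 279 and 358, and the Dgki circles on that donor ran from 6.59 to 701.

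**Figure D3:**
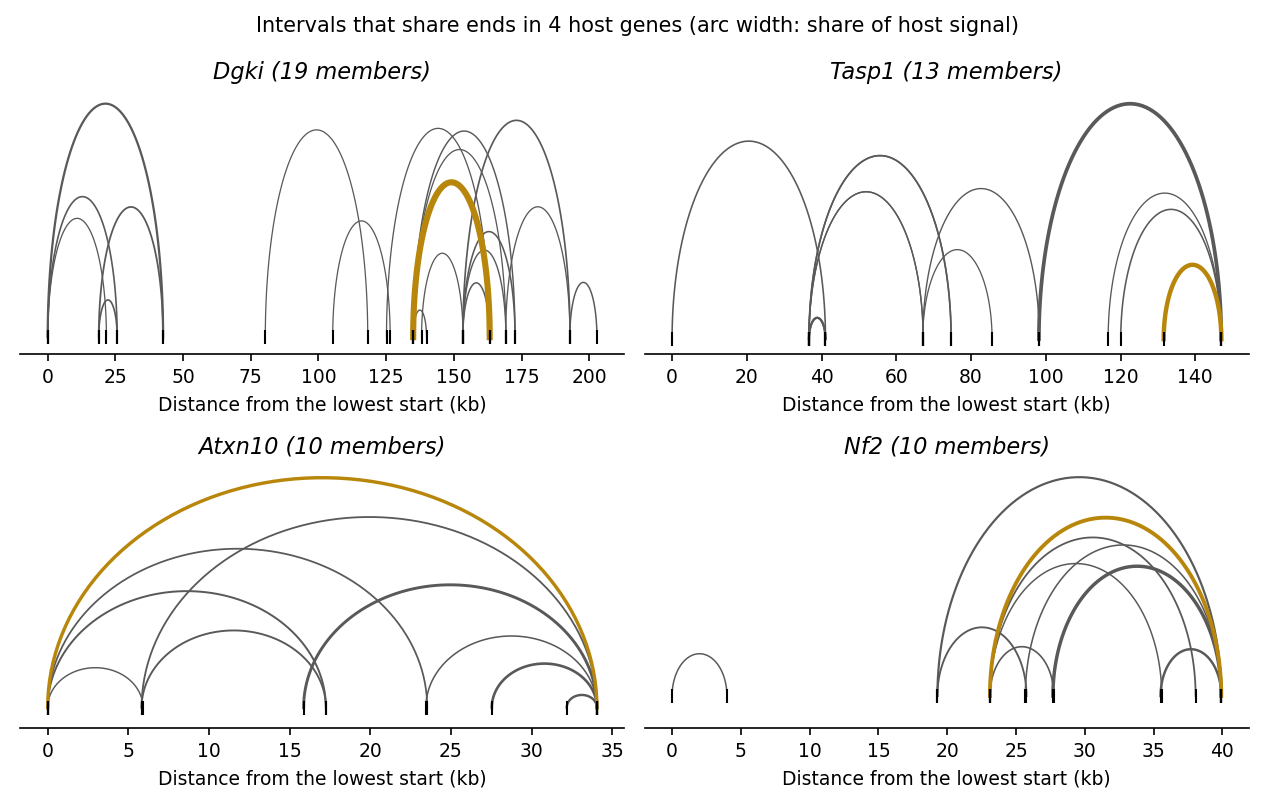
Intervals of all members of Dgki, Tasp1, Atxn10 and Nf2, drawn as arcs between their ends against the distance from the lowest start (horizontal axis, kb). Arc width grows with the share of the host's signal, arc height only follows interval length, and the top junction is drawn in gold; bundles of arcs meet at 1 end, such as the right end of Atxn10, which 6 members share.

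Within a host, 61.8% of 3366 pairs of members did not overlap, 9.18% had the same start, 10.8% the same end, 3.27% were nested without a shared end, and 15% overlapped in part. Among the last, 188 pairs overlapped by at most 1000 bp, over 110 distinct segments in 62 hosts. These segments had a median length of 116 bp with quartiles of 84.2 and 162 bp. In such pairs, 1 circle has its last stretch where the next has its first, as in Dgki, where the donor and the acceptor concerned lie 66 bp apart at position 37037628 of chromosome 6. Exon status was not checked, because no annotation of the mm9 build was used. Distinct ends on the same side lay within 30 bp of each other in 4 cases. Tasp1 had starts 13 bp apart, each joined to the same 3 ends, with summed signals of 174 and 138. Anks1b had starts 3 bp apart, with 20 and 45.9. In Ssbp2, ends 19 bp apart carried 895 and 5.57.

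The ends of Foxp1 and Eif4e3, neighbouring genes on chromosome 6, met across the gene names. Eif4e3 encodes a protein of the family that binds the mRNA cap. The top Eif4e3 member, chr6:99582250-99601785, had a signal of 188, 183 and 176 in 5xFAD and 190.5, 178 and 137 in WT, and the top Foxp1 member, chr6:99385209-99406574, had 114, 47.5 and 54.7 in 5xFAD and 77.5, 56.1 and 68.3 in WT. An interval named for Foxp1, chr6:99385209-99601785, has the start of the top Foxp1 member and the end of the top Eif4e3 member, and spans 216576 bp. It had 17.3, 16 and 27.5 in 5xFAD and 13.5, 30.8 and 15.7 in WT, with reads in every library and overlapping genotypes. A second spanning interval, named for Eif4e3 and 222582 bp long, had 3.46, 3.62 and 2.63 in 5xFAD and 0, 5.47 and 3.51 in WT. Both are too long to be members. Whether they are joins between transcripts of both genes was not tested.

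The genotype comparison asks whether any of these circles differ between 5xFAD and WT hippocampus, and no member passed the test. With limma on log2(signal + 1) over all 7025 listed junctions, 0 had a Benjamini-Hochberg adjusted p under 0.05 (0%), so 0 of 835 members did, with a smallest adjusted p of 0.549 among them. At an unadjusted p under 0.05 there were 32 members (3.83%), against 5.68% of all listed junctions. On recovered reads, edgeR's quasi-likelihood test called 0 members with 17 at an unadjusted p under 0.05, against 202 of all 7025 junctions. DESeq2 called 0 members with 16 at that level, against 235 of all 7025. The median log2 difference, 5xFAD minus WT, was -0.074 for the members and -0.056 for all junctions. With edgeR it was -0.0029 for the members and 0.016 for all junctions. With DESeq2 it turned positive, 0.024 for the members and 0.047 for all junctions. These tools differ from limma here in model, input and scaling. The 5xFAD libraries were all above WT in 28 members (3.35%, against 4.43% of all junctions) and all below in 45 (5.39%, against 6.65%). Members were thus called or separated no more often than the listed junctions as a whole. In bulk tissue, fewer cells of a type and less RNA per cell cannot be told apart.

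**Figure D4:**
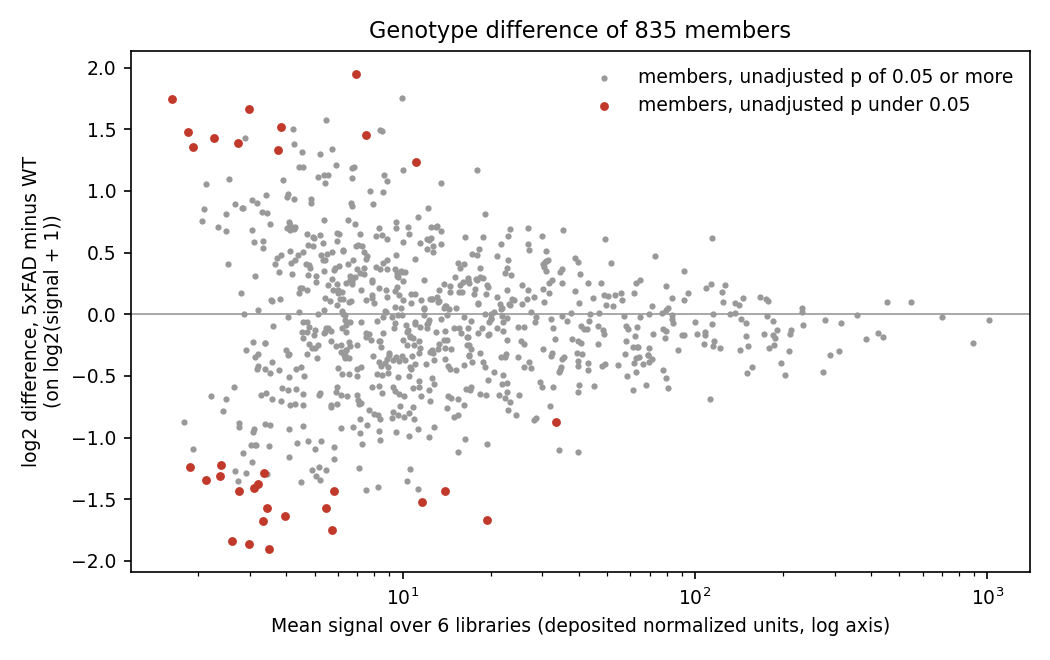
Log2 difference between genotypes (vertical axis, 5xFAD minus WT on log2(signal + 1)) against the mean signal of 6 libraries (horizontal log axis) for 835 members. Red points are the 32 with an unadjusted limma p under 0.05; large differences lie at low signal, and 5 of the 438 members with a mean of at least 10 are red.

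The precision differs with level. The median 95% interval reached 1.26 on the log2 scale to either side of a member's estimate, and 100 members (12%) had an interval that stayed within a 2-fold change both ways. The strongest circles are among those. The top Dtnb junction differed by -0.049 (SE 0.26, 95% interval -0.62 to 0.52). For the top Ssbp2 junction the difference was -0.23 (SE 0.25, interval -0.76 to 0.29), and for the top Dgki junction -0.018 (SE 0.25, interval -0.55 to 0.51). The top Rims1 junction, chr1:22336373-22369621, had 388, 486 and 535 in 5xFAD and 425, 465 and 417 in WT, and the top Anks1b junction, chr10:89532212-89539887, had 559.6, 519 and 617 in 5xFAD and 598, 502 and 482 in WT. In each of these the genotypes overlapped.

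The members with the smallest unadjusted p were mostly weak. An Eif4e3 circle, chr6:99582250-99619520, had 3.46, 2.49 and 3.11 in 5xFAD and 0, 0.684 and 0 in WT, a log2 difference of 1.75 (SE 0.48, unadjusted p = 0.00269). It has the lowest mean signal of all members, 1.62, and the stronger circles with the same start did not separate the genotypes. A Dync1i1 circle, chr6:5911840-5922209, from the gene of a dynein intermediate chain, had 18.2, 6.78 and 9.8 in 5xFAD and 1.12, 3.65 and 1.87 in WT, a difference of 1.94 (SE 0.65, unadjusted p = 0.0096). A Cacna1a circle, chr8:86985388-87003077, had 4.33, 2.26 and 2.87 in 5xFAD and 0, 1.14 and 0.468 in WT, and a Cacna2d3 circle, chr14:29782343-29795559, had 12.1, 13.8 and 8.6 in 5xFAD and 2.99, 4.33 and 3.27 in WT. An Arhgap10 circle, chr8:79868538-79908695, from the gene of another GTPase-activating protein, had 2.6, 2.49 and 5.98 in 5xFAD and 0, 2.05 and 0.468 in WT. In all of these the 5xFAD libraries lie above the WT libraries. None of them is the top circle of its host. In the other direction, a circle of Osbpl1a, for an oxysterol-binding-related protein, had 0, 0.904 and 1.43 in 5xFAD and 6.74, 4.79 and 3.98 in WT at chr18:12978013-12999855, a difference of -1.86 (SE 0.58, unadjusted p = 0.00633). A Kmt2c circle, chr5:24794807-24796705, from the gene of a histone methyltransferase of enhancers, had 3.46, 11.1 and 13.4 in 5xFAD and 43, 19.8 and 26 in WT, a difference of -1.67 (SE 0.55, unadjusted p = 0.00888). It was the strongest of the low ones, and its WT libraries spread over more than its 5xFAD libraries. A Dgki circle at chr6:36950041-36971265 had 0, 0.904 and 1.91 in 5xFAD and 6.74, 2.96 and 8.42 in WT. A circle of Lrrc7, for a postsynaptic scaffold protein, had 0, 2.03 and 0 in 5xFAD and 7.11, 2.28 and 4.21 in WT at chr3:157951943-157966379, and a Large circle had 2.6, 0 and 0.956 in 5xFAD and 8.61, 4.56 and 3.27 in WT at chr8:75376023-75409702. In these the 5xFAD libraries lie below the WT libraries, and limma's adjusted p was at least 0.549 for every member. Every listed junction had a signal of at least 2.03 in all 3 libraries of at least 1 genotype. Of the circles named here, all but those of Cacna2d3 and Kmt2c fall below that level in a library of their lower genotype. They meet the level only through the genotype where they are high, so their separation is no support for a difference.

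**Figure D5:**
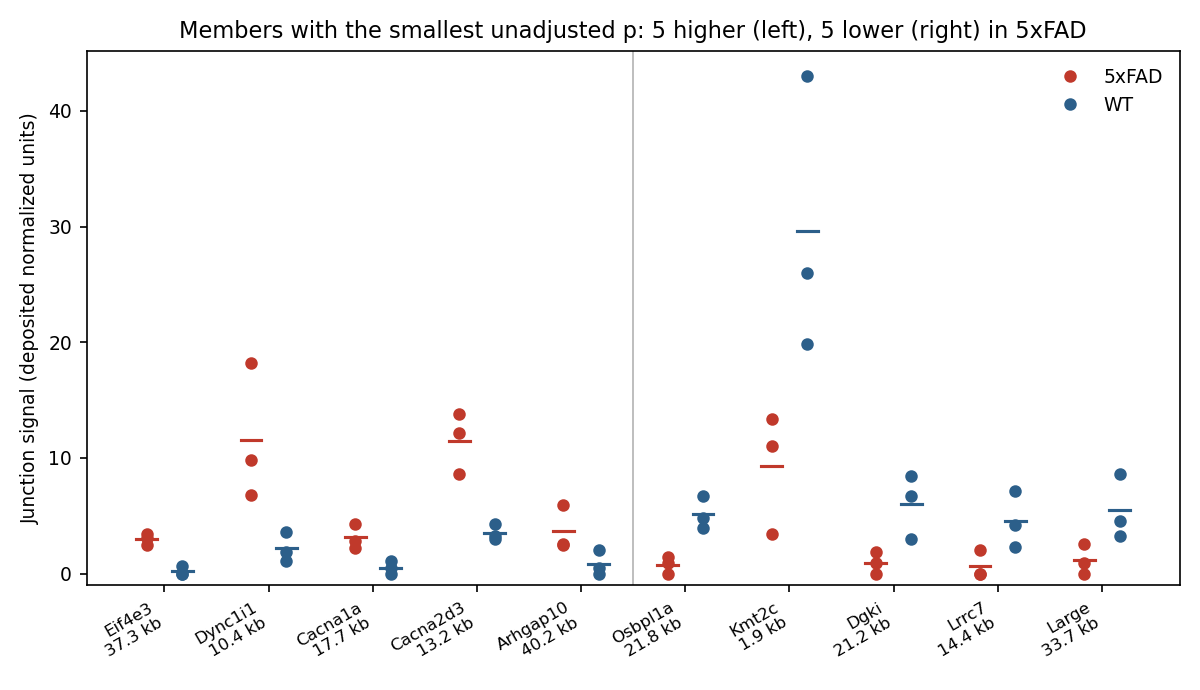
Signal per library (vertical axis, deposited normalized units) of the 10 members with the smallest unadjusted p, 5 with a positive difference on the left and 5 with a negative one on the right, with 5xFAD left of WT for each. Points are libraries and bars are means of 3. The genotypes do not overlap in any of the 10, most values are under 15, and none passed adjustment. The 10 were picked by p, and most reach the lowest listed level throughout only in their higher genotype, so the separation is no support for a difference.

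Summed per host, the mid-length signal gave the same picture. With limma, 0 of 2634 hosts had an adjusted p under 0.05 (0%), and 1 of the 106 many-junction hosts had an unadjusted p under 0.05, against 3.87% of all hosts tested. edgeR called 0 hosts of the 106 with 0 at an unadjusted p under 0.05, against 50 of all 2634 hosts. DESeq2 called 0 of the 106 with 0 at that level, against 60 of all 2634. The 5xFAD libraries were all above WT in 2 of the 106 hosts, Myrip and Asph, against 3.68% of all hosts. They were all below in 7, against 5.85%. The host with an unadjusted p under 0.05 was Kmt2c, with 72.8, 93.1 and 76 in the 5xFAD libraries and 155, 101 and 119 in the WT libraries, a log2 difference of -0.61 (SE 0.26, 95% interval -1.18 to -0.046), with a limma adjusted p of 0.998. Osbpl1a followed with 53.7, 34.3 and 29.4 in the 5xFAD libraries and 82, 47.4 and 60.8 in the WT libraries, a difference of -0.69 (SE 0.34, 95% interval -1.43 to 0.048), and overlapping libraries. Cog5, for a Golgi tethering protein, averaged 137 ± 18.9 in 5xFAD and 181 ± 29.4 in WT. Atp9b, for a phospholipid flippase, averaged 137 ± 28.6 in 5xFAD and 188 ± 47.8 in WT, and Atrnl1, for an attractin-like membrane protein, 319 ± 93 in 5xFAD and 432 ± 111 in WT. Of the hosts higher in 5xFAD, Myrip, which links Rab proteins to myosin, had 229, 260.1 and 344 in the 5xFAD libraries and 199, 195 and 221 in the WT libraries, a difference of 0.42 (SE 0.23, 95% interval -0.079 to 0.91). Dym, for a Golgi protein, averaged 157 ± 31.2 in 5xFAD and 122 ± 11.3 in WT. Csmd2 averaged 104 ± 19.1 in 5xFAD and 81.1 ± 13.9 in WT, Tenm3, a teneurin of synapse formation, 169 ± 62.3 in 5xFAD and 126 ± 51.8 in WT, and Erc2 as given above. None of these passed adjustment, and for 91 of 106 hosts the 95% interval of the sum stayed within a 2-fold change both ways. Over the host lists, the count of called members and hosts was 0 in each, and the median log2 difference of members ran from -0.38 for the glutamate and GABA receptor list, which rests on 3 members, to 0.12 for adhesion and guidance receptors.

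Dominance was compared between genotypes as the log2 ratio of the top junction to the host's other mid-length junctions. With limma, 0 of 1211 hosts had an adjusted p under 0.05 (0%), and 1 of 105 many-junction hosts had an unadjusted p under 0.05, against 5.12% of all hosts tested. That host was Large, where the top junction held 70, 100 and 77.8% in 5xFAD and 0, 35.5 and 63.2% in WT, of a summed signal of 8.66, 3.16 and 4.3 in the 5xFAD libraries and 8.61, 7.06 and 8.89 in the WT libraries. Ap3b1 followed, with 25.1, 22.5 and 16.5% in 5xFAD and 10.6, 18.3 and 7.94% in WT. Among larger shares in 5xFAD, the adhesion gene Tenm4 had 27.5 ± 9.21% in 5xFAD and 17.5 ± 3.17% in WT, the cell-cycle transcription factor gene Tfdp2 62.7 ± 7.38% in 5xFAD and 44.8 ± 7.74% in WT, and the syntrophin gene Sntg1 31.8 ± 5.83% in 5xFAD and 23.2 ± 5.21% in WT. Among smaller shares in 5xFAD, Dync1i1 had 68.8 ± 6.19% in 5xFAD and 80.4 ± 7.46% in WT, Ttll5 45.3 ± 9.2% in 5xFAD and 56.3 ± 3.07% in WT and Cacna2d3 58.9 ± 3.31% in 5xFAD and 66.8 ± 2.32% in WT. The integrin gene Itga8 had 36.5 ± 7.6% in 5xFAD and 44.7 ± 0.598% in WT. For Dync1i1 and Cacna2d3, the circles given above as higher in 5xFAD are part of the remainder. In Large the remainder is the circle given above as lower in 5xFAD. That circle meets the lowest listed level only through WT, so the Large ratio is no support for a difference. The shares did not overlap between genotypes in Large, Tfdp2, Dync1i1 and Cacna2d3, and overlapped in the others named. The hosts named were picked by p, and separated shares were not counted over all hosts, so the separation is no support for a difference. The smallest adjusted p of a many-junction host was 0.859 by limma.

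The authors' deposited table gives its own adjusted p per junction, under 0.05 for 16 of 835 members (1.92%), against 3.76% of all listed junctions. The log2 ratio in the authors' deposited table is positive for 6 of these members and negative for 10. They come from 12 hosts, with 3 from Cacna2d3, 2 from Dgki and 2 from Ptk2. Of the 16, 8 had an unadjusted limma p under 0.05. Those of Eif4e3, Osbpl1a, Cog5, Kmt2c, Tfdp2, Cacna1a and Ttll5 fall below 2.03 in a library of their lower genotype. The same holds for chr6:36925146-36962982 in Dgki and chr14:30146894-30165129 in Cacna2d3. These meet the lowest listed level only through the genotype where they are high, so their calls are no support for a difference. The largest in signal was the second Dgki junction, chr6:36844775-36887400, with 123, 125 and 137 in 5xFAD and 155, 154 and 162 in WT, whose log2 ratio in the authors' deposited table is -0.29. Its libraries separated the genotypes, and the difference on log2(signal + 1) was -0.29 (SE 0.27, limma adjusted p = 0.936). This SE, like the others given, is limma's, which draws each variance toward that of junctions of like level. It is not the spread of this junction's libraries alone.

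Gene levels of the hosts were read from the CG libraries, where FPKM per gene does not separate linear from circular RNA. All 106 hosts were tested, with mean levels in WT of 3.68 to 249 FPKM and a median of 26.6. With limma on log2(FPKM + 1), 1 of 14500 genes (0.0069%), which is not a host, had an adjusted p under 0.05 over the 6 libraries. Over the 5 libraries without the one labelled 5xFAD replicate 3, 174 of 14527 genes (1.2%) did, and again 0 hosts. At an unadjusted limma p under 0.05 there was 1 of 106 hosts with 6 libraries, Lrrc7, against 424 of 14500 genes. With 5 libraries there was 1 host, Dtnb, against 858 of 14527 genes. Lrrc7 had 55.4, 51 and 52.9 FPKM in 5xFAD and 61.5, 61.7 and 59.5 in WT, with no overlap and a limma adjusted p of 1 over 6 libraries. Dtnb had 25.5, 23.7 and 28.4 FPKM in 5xFAD, the last from the library that goes against its label, and 29.6, 30.1 and 29 in WT. Kmt2c, the host with the smallest p among the junction sums, had 20.8, 21.3 and 20.8 FPKM in 5xFAD and 20.8, 22.5 and 20.3 in WT. Microglial markers were higher in 5xFAD replicates 1 and 2 than in the other CG libraries, at a summed 279.6, 287 and 109 FPKM in 5xFAD and 95.6, 119.9 and 106 in WT over 5 of 5 markers, all detected. Oligodendrocyte markers, 5 in all, were also highest in those libraries, at 1817, 1829 and 1461 FPKM in 5xFAD and 1654, 1496 and 1482 in WT. The 6 inhibitory neuron markers were lowest there, at 388, 384 and 490.2 FPKM in 5xFAD and 529, 467 and 507 in WT. The part of these markers in the hosts' levels was not tested.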

How the data were processed

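Junction signal was deposited by the authors as normalized values for 7025 mm9 intervals in 6 AT libraries. The authors also deposited a log2 ratio and a raw and an adjusted p-value for each interval, per the file headers. Gene levels were deposited by the authors as FPKM for 24318 genes in 6 CG libraries, whose depth is unknown. Per the labels' protocols, RNA was extracted with TRIzol and depleted of rRNA, and per the submitters' processing notes the build was mm9 and the tool DESeq. Not given in the sources used here are the aligner, the junction caller, the annotation, the counting strand, and whether interval starts count from 0 or 1, so coordinates stand as deposited. Interval length is end minus start, and counting both ends gave the same 835 members. Within each library 100% of signal values were whole multiples of 1 step within 0.01, which gave the recovered read counts; edgeR and DESeq2 used these only as alternatives.

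The main test was limma 3.58.1 (R 4.3.3) with a mean trend on log2(value + 1), two-sided, over features with a mean of at least 0.5 and fitted on each whole table. It was applied to junctions, to sums of mid-length junctions per host, to the log2 ratio of the top junction to the host's other mid-length junctions, and to FPKM. Signal on this scale understates the fold changes of low junctions. edgeR 4.0.16 and DESeq2 1.42.0 were the other tools. The fits were tested on simulated data. AT libraries differed by chi-square values of 5.85 to 13.6 per degree of freedom over all pairs, so each counts once. Same-numbered AT libraries of the genotypes deviated together only weakly, with correlations of 0.040 to 0.088. In the CG set the correlations were 0.42, 0.28 and 0.040 for numbers 1, 2 and 3. Libraries with different numbers had correlations of -0.11 to 0.081 in the AT set and -0.36 to 0.15 in the CG set. In neither set did every same-numbered pair pass 0.1, so the numbers were not taken as pairs. In the CG set, number 3 includes the library that goes against its label, so pairing by number is not excluded there. Intervals and read floors cover counting or replicate error only.

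The members and gene lists were chosen with earlier results of these data known. Named are the 10 hosts with the most members (13 with ties), the 10 with the highest sums, the 5 with the highest and the 5 with the lowest top shares among hosts with 3 or more members, and the 5 with the most members on 1 end, with ties at 4 taken by signal. To these come the 5 rises and 5 falls with the smallest p in each genotype fit, up to 4 hosts per list, and their top junctions. The balance of 1 host named by this rule is not reported here. Edge intervals, Foxp1 with Eif4e3, near ends and Atxn1, Large and Pvt1 were chosen after their values were seen. No mm9 sequence was used, so none is printed.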

Additional observations from a re-analysis of the deposited data

How the results depend on the processing

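No member passed under any of the 16 settings tried, 0 of the 106 host sums under 16, no top-junction balance under 13, and 0 hosts in the CG table under 10. Over all junctions, array quality weights called 2 and DESeq2 1, none of them members; over all host sums each called 1, not among the 106. The median log2 difference of the members was -0.074, -0.0029 with edgeR, 0.024 with DESeq2 and -0.11 to -0.039 with single libraries left out; the cause was not tested. With the replicate block, 0 junctions were called, 358 had an unadjusted p under 0.05, and the median (-0.074) cannot change in this balanced design; in the CG table the block called 1 gene, no host, with 760 at an unadjusted p under 0.05, against 424 without it; the numbers are not known to pair the libraries. Without CG 5xFAD replicate 3, 174 CG genes were called, against 1 with any other library left out. The median top share was 38.7% over intervals of all lengths and 43.6% in hosts with 10 or more junctions, and over 50% in 24 of 106 and 16 of 51; with libraries left out it was 44.4 to 45.5% and 36 to 41 hosts. An end was shared by 79.4% of members counting only other members as partners, and by 73.5% among junctions with a mean signal of at least 10, a setting chosen after seeing the data; both leave fewer possible partners. At these depths 98 members had no read in at least 1 library: 44 in 5xFAD replicate 1, with 191408 junction reads, but also 12 in WT replicate 3 against 1 in WT replicate 2, which had 695528 and 695539.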

Other observations

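The replicate 1 libraries, the shallowest of each genotype, were the highest of their genotype in more host sums than the other libraries. 5xFAD replicate 1 was the highest of its genotype in 47 of 106 many-junction hosts and the lowest in 41, and WT replicate 1 the highest in 52 and the lowest in 34. Both were the highest of their genotype together in 30 of 106 hosts, Tasp1, Dock4, Rere and Foxp1 among them, and in 496 of 2634 hosts tested. Whether depth accounts for it was not tested.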
